A study of Homo sapiens with 12 samples.

Results

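The proteasome is a large protease that degrades proteins tagged with ubiquitin. The genes described here encode its subunits, its activators and inhibitor, and the chaperones that assemble it. PSMC3IP and PSME3IP1 are none of these, but the symbol rule takes them and they stay in the counts. Members were the protein-coding genes whose symbol reads PSMA, PSMB, PSMC, PSMD, PSME, PSMF or PSMG followed by a digit, with a mean of at least 1 CPM (counts scaled to library size) over all libraries. PSMB8 and PSMB9, catalytic subunits of the interferon-inducible immunoproteasome, were left out. Of 83 symbols that matched, 49 were protein-coding; 2 were left out by name and 1, PSMB11, lay under 1 CPM. The remaining 46 of 40649 genes in the table were all among the 19268 genes tested. The rule itself uses no measured difference between groups, but it was chosen with earlier results of these data known.

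Expression was measured by poly(A) RNA sequencing in HK-2 cells, an immortalised human kidney proximal tubule line, in 3 groups of 4 libraries. The extraction protocol speaks of kidney tissue and the other labels of HK-2 cells. All libraries were treated here as HK-2 cultures. The first group carried the Yap1 knockdown and received hydrogen peroxide (H2O2, an oxidant) at 150 µM for 48 h. The second carried the genotype labelled ShNC, the control genotype, and received the same H2O2 treatment. The third carried ShNC and was labelled Control for treatment. Whether a stable or transient construct, a clone or a pool of cells was used is not given in the sources used here, and no group with the knockdown but without H2O2 was analysed here. Below, the knockdown comparison is Yap1 knockdown + H2O2 against ShNC + H2O2, the H2O2 comparison is ShNC + H2O2 against ShNC, and the combined comparison is Yap1 knockdown + H2O2 against ShNC. The 3 comparisons share libraries, so a high or low value in 1 group enters 2 of them, and no likeness between them is given as a result. The ShNC + H2O2 libraries enter the knockdown comparison with a minus sign and the H2O2 comparison with a plus sign.

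In cells the proteolytic core, a barrel, has outer rings of alpha subunits (PSMA), which gate the entry, and inner rings of beta subunits (PSMB), of which PSMB5, PSMB6 and PSMB7 carry the protease sites. A regulatory cap sits on the barrel: its base holds a ring of ATPases (PSMC) that unfold the substrate. Of the cap's other subunits (PSMD), some bind ubiquitin or remove it, and others include scaffolds. Because the subunits are used together in fixed ratios, their genes are known to be transcribed together, and in mammalian cells the transcription factor NFE2L1 raises them when proteasome activity is short. Mild oxidative stress is known to change the balance between the capped and the free core.

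The 12 libraries held 30789997 to 46582873 counts, and 3 counts, the most that 0 observed counts allows, corresponded to 0.0644 to 0.0974 CPM. Such limits cover counting error only, whereas the 95% intervals of fold changes come from the fit and include the spread between libraries. The labels do not state whether replicates were independent cultures. Each p-value therefore reflects how much these particular libraries varied, which can be technical variation. Mitochondrial genes took 13.9% of counts in ShNC replicate 4 and 11.3% in Yap1 knockdown + H2O2 replicate 3, against 4.54% to 5.64% in the other 10 libraries. Results that move with these 2 are also given without them. YAP1 itself averaged 128 ± 11.7 CPM in Yap1 knockdown + H2O2 cells, 156 ± 5.19 CPM in ShNC + H2O2 cells and 133 ± 7.25 CPM in ShNC cells (SD, n = 4 each), a log2 fold change of -0.29 ± 0.07, edgeR adjusted p = 0.00346 in the knockdown comparison and of -0.05 ± 0.07, edgeR adjusted p = 0.636 in the combined one. Of 9 epithelial markers of the line, all lay above 1 CPM; of 7 markers of the differentiated proximal tubule, 2 did. Leukocyte markers summed to at most 2.38 CPM and endothelial ones to at most 0.435 CPM in any library. Fibroblast-type matrix genes (COL1A1, DCN, LUM, PDGFRA) summed to 142 to 170.4 CPM in Yap1 knockdown + H2O2, 234 to 254 CPM in ShNC + H2O2 and 108 to 111 CPM in ShNC libraries. Almost all of it came from LUM, while PDGFRA stayed under 0.1 CPM; their part in the results below was not tested. CPM are shares of a library, so fewer cells expressing a gene and less of its RNA per cell cannot be told apart.

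Per length of exon the subunits were not equally abundant. PSMA7, an alpha subunit, was highest at 116 CPM per kb of merged exon over all libraries, followed by the beta subunits PSMB7 at 94.9 and PSMB4 at 91.5. The 8 beta ring genes had a median of 70.1 CPM per kb, against 17.1 for the 7 alpha ring genes, 25.8 for the 6 ATPases, 21.2 for the 11 other cap subunits, 26.0 for the 5 activators and inhibitor and 10.3 for the 7 chaperones. The lowest levels belonged to PSMA2 (0.375), PSMA6 (0.723), the chaperone PSMD9 (0.814) and the chaperone PSMG4 (1.504), although PSMA2 and PSMA6 encode obligatory parts of the ring. For 7 members, over 20% of exon bases overlapped another annotated gene, and their counts are uncertain because the counting rule for such reads is not given in the sources used here: PSMC1 (75.8%), PSMB10 (34.8%), PSMA2 (34.6%), PSMD7 (30.7%), PSMC3IP (29.9%), PSMA1 (24.7%) and PSMD9 (22.6%). PSMA6, under that cut, shares 14.1% of its exon bases with AL121594.1, a counted gene on the same strand. The pseudogene PSMA6P1 averaged 2.90 CPM over all libraries, against 4.69 CPM for PSMA6. Whether these take reads of PSMA6 was not tested, so its count is uncertain too. PSMA1, PSMA2 and PSMA6 all enter the median of the alpha ring. Merged exon length counts every annotated isoform, so a gene with long unused isoforms reads low on this scale.

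**Figure D1:**
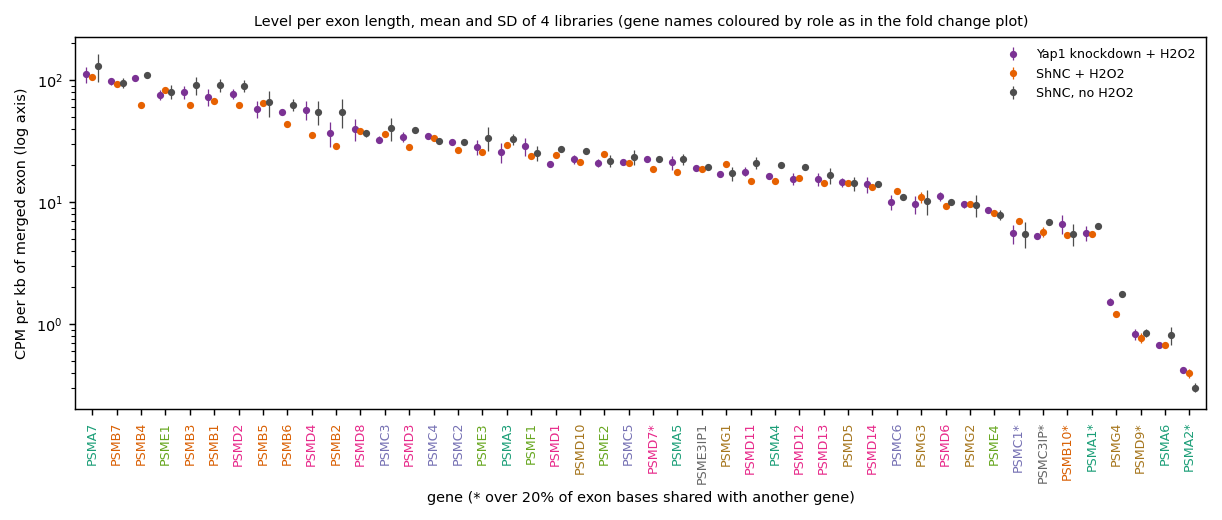
CPM per kb of merged exon (log axis) of the 46 genes, ordered from high to low; points are the means and bars the SD of 4 libraries in Yap1 knockdown + H2O2, ShNC + H2O2 and ShNC cells. PSMA7 at 115.6, PSMB7 at 94.9 and PSMB4 at 91.5 lead, and the order from gene to gene spans far more than the distance between the 3 groups of any gene.

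With H2O2, the members that changed were mostly lower, among them 5 of 8 beta ring genes and 7 of 11 subunits of the cap outside its ATPase ring. With the knockdown, most of the members that changed were higher. In the H2O2 comparison 19 of 46 members (41.3%) were lower in ShNC + H2O2 than in ShNC cells at an adjusted p under 0.05 (edgeR's quasi-likelihood test, adjusted over all genes), where 22.6% of all tested genes were, and 2 (4.35%) were higher, where 23.9% of all genes were. The median log2 fold change of the members was -0.17, against 0.00 over all genes, and 34 of 46 lay below 0, where 49.7% of all genes did. In the knockdown comparison 12 members (26.1%) were higher, near the 22.0% of all genes that were higher, and 4 (8.7%) were lower, where 21.0% of all genes were. The median was 0.08 and 14 members lay below 0, where 50.4% of all genes did. In the combined comparison 11 members (23.9%) were lower, against 15.1% of all genes, and 1 (2.17%) was higher, against 17.4%, with a median of -0.10.

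These counts moved with the scaling and with the libraries included, and also with the subtraction of neighbouring genes described further on. With library totals in place of TMM scaling, which moved the median of all genes to -0.07 in the knockdown comparison, 7 members were higher and 4 lower there, against 17.9% and 23.5% of all genes. In the combined comparison it gave 6 members lower, against 13.3% of all genes. Without ShNC replicate 4 the combined comparison had 20 members lower and 3 higher. Without Yap1 knockdown + H2O2 replicate 2 it had 5 lower, and without replicate 3 of that group 3 higher. Without ShNC replicate 1 or replicate 2 it had 6 and 7 lower members, and the H2O2 comparison had 0 higher. Shares of all genes are not given for these fits without 1 library. Their counts are therefore no result about the members as against all genes. Without both libraries of high mitochondrial share, 22 members were higher and 7 lower in the knockdown comparison (28.8% and 28.5% of all genes), 8 higher and 29 lower in the H2O2 comparison (29.8% and 29.6%), and 5 higher and 23 lower in the combined one (24.0% and 22.8%). Levels of the 2 groups did not overlap for 13 members higher and 5 lower in the knockdown comparison (22.5% and 22.7% of all genes), for 4 higher and 22 lower in the H2O2 comparison (25.2% and 22.9%) and for 1 higher and 4 lower in the combined one (15.8% and 13.9%).

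**Figure D2:**
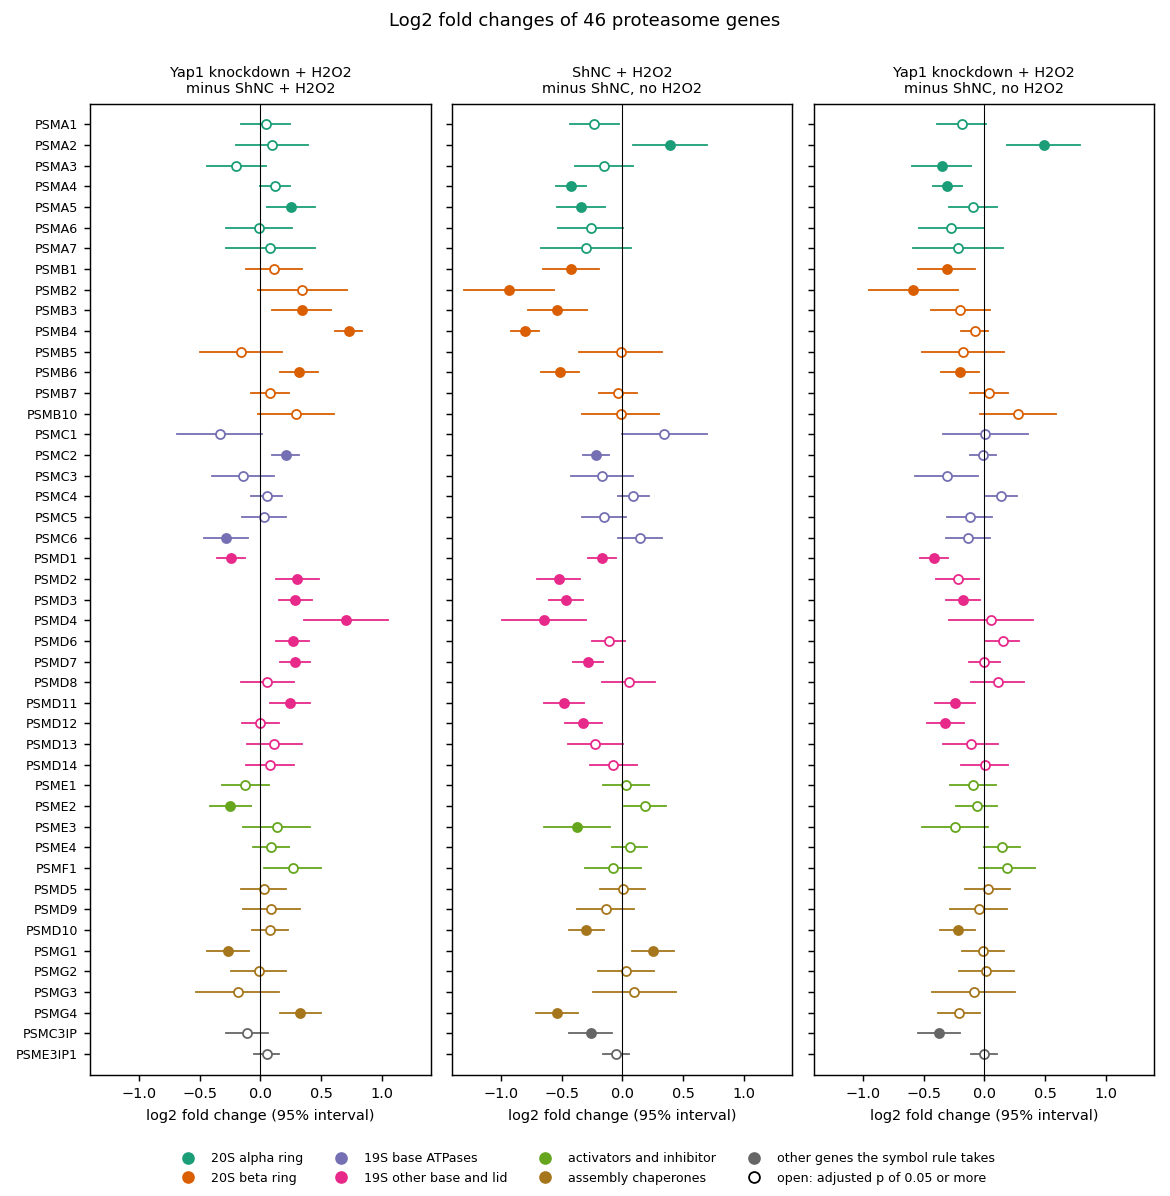
Log2 fold change of each member with its 95% interval in the knockdown, H2O2 and combined comparisons (left to right), coloured by role; filled points passed an adjusted p of 0.05. In the middle panel 19 members are filled left of 0 and 2 right of it, and in the left panel 12 are filled right of 0 and 4 left.

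Read gene by gene, 8 members were lower in the H2O2 comparison, higher in the knockdown comparison and not called in the combined one: PSMA5, PSMB3, PSMB4, PSMC2, PSMD2, PSMD4, PSMD7 and PSMG4. PSMB6, PSMD3 and PSMD11 had the same pair of calls and were also lower in the combined comparison. In 6 members, PSMA4, PSMB1, PSMB2, PSMD12, PSMD10 and PSMC3IP, the level was lower than in ShNC cells in both groups that received H2O2, with no call between those 2 groups. PSMD1 was lower in all 3 comparisons, and 21 members passed in none with all 12 libraries. Shares of all genes with these patterns were not taken, and the ShNC + H2O2 libraries enter the knockdown and H2O2 comparisons with opposite signs. The pattern counts are therefore no result about the members as against all genes. Of the 49 calls summed over the 3 comparisons, 32 held in each refit that left out 1 library of the groups compared: 11 of 16 in the knockdown comparison, 16 of 21 in the H2O2 comparison and 5 of 12 in the combined one.

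Promoters of 4 members are shown, chosen as examples because these members were lower with H2O2 and higher with the knockdown and differ in the motifs they hold. Sequences are from RefSeq on GRCh38.p14, 5′ to 3′ on the gene's strand, and run from 250 bases before the RefSeq start to the base before that start, or, where the annotated gene begins earlier (PSMB3, PSMB4 and PSMD3), to the base before the gene. Capitals mark matches to TGACNNNGC or TGAGNNNGC, 2 forms of the antioxidant response element core that NFE2L1 and NFE2L2 bind with small MAF partners, and to CCAAT, the box bound by the NFY complex, on either strand. PSMA5 lies at chr1:109426449-109426698 on the - strand, PSMB3 at chr17:38752491-38752735, PSMB4 at chr1:151399323-151399533 and PSMD3 at chr17:39980557-39980796 on the + strand.
PSMA5: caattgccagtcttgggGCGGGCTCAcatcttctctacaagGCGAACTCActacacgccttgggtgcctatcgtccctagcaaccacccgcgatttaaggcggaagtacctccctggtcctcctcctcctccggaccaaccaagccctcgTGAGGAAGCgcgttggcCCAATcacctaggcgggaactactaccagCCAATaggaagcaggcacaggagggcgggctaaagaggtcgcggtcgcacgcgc
PSMB3: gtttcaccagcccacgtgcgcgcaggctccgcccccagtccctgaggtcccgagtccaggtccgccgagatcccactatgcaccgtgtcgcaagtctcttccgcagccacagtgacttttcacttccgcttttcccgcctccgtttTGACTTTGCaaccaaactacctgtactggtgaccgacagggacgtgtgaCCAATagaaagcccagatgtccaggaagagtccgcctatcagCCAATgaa
PSMB4: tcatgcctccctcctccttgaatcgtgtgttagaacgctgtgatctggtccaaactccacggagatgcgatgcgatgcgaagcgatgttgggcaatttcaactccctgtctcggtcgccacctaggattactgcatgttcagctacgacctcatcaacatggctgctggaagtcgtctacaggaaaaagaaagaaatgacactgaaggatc
PSMD3: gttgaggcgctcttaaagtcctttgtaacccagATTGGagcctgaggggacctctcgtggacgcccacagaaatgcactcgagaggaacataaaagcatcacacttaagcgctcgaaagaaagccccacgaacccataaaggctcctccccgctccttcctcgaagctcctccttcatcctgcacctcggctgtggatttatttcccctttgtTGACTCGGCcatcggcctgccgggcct
The PSMA5 window held 3 matches to TGAGNNNGC and 2 to CCAAT, the PSMB3 window 1 match to TGACNNNGC and 2 to CCAAT, and the PSMD3 window 1 match to each of TGACNNNGC and CCAAT. The PSMB4 window held no match. Over the 40 members with an entry in the table, 250 bases before the start held TGACNNNGC in 10 (25%), against 11.0% of 27305 promoters of all genes, and TGAGNNNGC in 10 (25%), against 14.8%. CCAAT was found in 18 (45%), against 33.0%, and GAANNTTC, the core of the heat shock element, in 1 (2.5%), against 5.85%. Among the 16 of these members that were lower in the H2O2 comparison, 3 held TGACNNNGC, 1 held TGAGNNNGC and 8 held CCAAT. Motif matches are a description of letters and say nothing of binding.

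In the alpha ring, which gates the core, 2 of 7 genes were lower and 1 higher with H2O2 (22.6% and 23.9% of all genes). With the knockdown 1 was higher and 0 lower (22.0% and 21.0%). PSMA4 and PSMA5 were lower with H2O2 and PSMA2 was higher, and with all 12 libraries PSMA5 alone was higher with the knockdown. Without both libraries of high mitochondrial share, 5 were lower and 1 higher with H2O2 (29.6% and 29.8%). The knockdown then gave 3 higher and 0 lower (28.8% and 28.5%). PSMA4 (ENSG00000041357, chr15:78540405-78552419, + strand) had 116, 116, 104 and 118 CPM in Yap1 knockdown + H2O2 cells, 103, 105, 108 and 102 CPM in ShNC + H2O2 cells, and 134, 139, 146 and 142 CPM in ShNC cells. Each H2O2-treated library of either genotype lay below each ShNC library. Its log2 fold change was -0.42 ± 0.06, edgeR adjusted p = 1.8e-05 in the H2O2 comparison and -0.30 ± 0.06, edgeR adjusted p = 0.000748 in the combined one. PSMA5 (ENSG00000143106, chr1:109399031-109426427, - strand) had 124, 131, 96.5 and 132 CPM in Yap1 knockdown + H2O2 cells, 102, 102, 102 and 101 CPM in ShNC + H2O2 cells, and 134, 137, 134 and 109.6 CPM in ShNC cells. Replicate 3 of the knockdown group fell below the ShNC + H2O2 range and the other 3 lay above it, while the ShNC + H2O2 and ShNC libraries did not overlap. PSMA5 differed by 0.25 ± 0.09, edgeR adjusted p = 0.0414 on the log2 scale in the knockdown comparison and by -0.34 ± 0.09, edgeR adjusted p = 0.00692 in the H2O2 comparison. Relative to its neighbours PSMA5 was called in neither (0.18 and -0.18). The call in the knockdown comparison was lost (0.20 to 0.25) without any 1 of the 4 ShNC + H2O2 libraries or of replicates 1, 2 and 4 of the knockdown group, and held without replicate 3.

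In the H2O2 comparison PSMA2 lay above 0 and the rest of the ring below it, and PSMA3 was called only in the combined comparison. PSMA2 (ENSG00000106588, chr7:42916857-42932223, - strand) had 2.39, 2.17, 2.17 and 2.32 CPM in Yap1 knockdown + H2O2 cells, 2.31, 2.24, 2.00 and 1.93 CPM in ShNC + H2O2 cells, and 1.46, 1.70, 1.53 and 1.76 CPM in ShNC cells. Both groups with H2O2 lay wholly above ShNC cells, at a level near the lowest of the set. With H2O2, PSMA2 was higher by 0.39 ± 0.14, edgeR adjusted p = 0.0333 in the H2O2 comparison and by 0.49 ± 0.14, edgeR adjusted p = 0.0151 in the combined one (log2). Of its exon bases, 34.6% overlap other genes. Among them are the counted genes AC010132.3, on the same strand, and MRPL32, on the opposite strand. The first call was lost (0.35 to 0.41) without replicate 1 or 2 of ShNC + H2O2 or replicate 1, 2 or 3 of ShNC, and relative to its neighbours (0.30). PSMA3 (ENSG00000100567, chr14:58244831-58272012, + strand) had 88.3, 83.6, 58.5 and 89.0 CPM in Yap1 knockdown + H2O2 cells, 93.2, 87.5, 88.7 and 96.9 CPM in ShNC + H2O2 cells, and 111, 107, 102 and 87.3 CPM in ShNC cells. Replicate 3 of the knockdown group was far below all the others, and the knockdown and ShNC ranges overlapped through ShNC replicate 4. The log2 fold change was -0.35 ± 0.11, edgeR adjusted p = 0.0259 in the combined comparison, -0.30 without both libraries and -0.23 without knockdown replicate 3, and the call was lost (-0.35 to -0.31) without ShNC replicate 1, 2 or 3 and relative to its neighbours (-0.28). PSMA1, PSMA6 and PSMA7 passed in no comparison. PSMA7, the most abundant member per kb, averaged 195 ± 30.0 CPM in Yap1 knockdown + H2O2 cells, 185 ± 2.25 CPM in ShNC + H2O2 cells and 227 ± 60.0 CPM in ShNC cells (SD, n = 4 each). Its log2 fold change in the H2O2 comparison was -0.30 (95% interval -0.67 to 0.07); without ShNC replicate 4, which lay far below the other 3, it was -0.48 and passed.

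The beta ring held the largest falls with H2O2. Of its 8 genes, 5 were lower in the H2O2 comparison (PSMB1, PSMB2, PSMB3, PSMB4 and PSMB6) and none was higher (22.6% and 23.9% of all genes), and the ring's median log2 fold change was -0.47. In the knockdown comparison 3 were higher (PSMB3, PSMB4 and PSMB6) and none lower (22.0% and 21.0% of all genes), with a median of 0.31. Without both libraries of high mitochondrial share these counts were 7 lower with H2O2 and 7 higher with the knockdown (29.6% and 28.8% of all genes). Summed over the ring, levels ran from 1001 to 1052 CPM in Yap1 knockdown + H2O2 libraries, 842 to 861 CPM in ShNC + H2O2 libraries and 1159 to 1242 CPM in ShNC libraries, so the 3 groups did not overlap. The ShNC + H2O2 group was lowest and the knockdown group lay between. The sums include PSMB2, which was far above its group in ShNC replicate 4 (373 CPM) and knockdown replicate 3 (239 CPM). Whether the groups stay apart without PSMB2 was not tested. Sums over the alpha ring, the ATPases, the other cap subunits, the activators and inhibitor, and the chaperones each overlapped between Yap1 knockdown + H2O2 and ShNC libraries.

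PSMB4, a beta subunit without a protease site, had the strongest call of any member. PSMB4 (ENSG00000159377, chr1:151399534-151401944, + strand) had 210.2, 218, 239 and 224 CPM in Yap1 knockdown + H2O2 cells, 134, 139, 135 and 131 CPM in ShNC + H2O2 cells, and 233, 233, 240.3 and 235 CPM in ShNC cells. ShNC + H2O2 cells stood apart from both other groups, which overlapped each other. It was 65.3% higher in the knockdown comparison (log2 fold change 0.72 ± 0.05, edgeR adjusted p = 3.91e-08) and 42.8% lower in the H2O2 comparison (-0.81 ± 0.05, edgeR adjusted p = 6.85e-09). In the combined comparison it differed by -0.08 (95% interval -0.19 to 0.03). The genes around it had median log2 fold changes of 0.69 in the knockdown comparison and -0.62 in the H2O2 comparison. PSMB2 (ENSG00000126067, chr1:35599544-35641844, - strand), another subunit without a protease site, had 165, 151, 239 and 155 CPM in Yap1 knockdown + H2O2 cells, 143, 144, 135 and 137 CPM in ShNC + H2O2 cells, and 225, 231, 236 and 373 CPM in ShNC cells. ShNC + H2O2 cells were lowest, without overlap with either group, and ShNC replicate 4 and knockdown replicate 3 were each far above the rest of their group. Its fall of -0.93 ± 0.17 in the H2O2 comparison (edgeR adjusted p = 0.000525) was the largest of any member, and was -0.73 without both libraries. The log2 fold change in the combined comparison was -0.59 ± 0.17, edgeR adjusted p = 0.0174; it was -0.39 without ShNC replicate 4, and the call was lost (-0.53 to -0.52) without replicate 2 or 4 of the knockdown group.

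PSMB3 and PSMB1 also lack a protease site. PSMB3 (ENSG00000277791, chr17:38752736-38764231, + strand) had 99.01, 99.3, 76.6 and 100.04 CPM in Yap1 knockdown + H2O2 cells, 71.5, 74.9, 77.7 and 72.4 CPM in ShNC + H2O2 cells, and 115, 115, 119.9 and 80.2 CPM in ShNC cells. Replicate 3 of the knockdown group lay within the ShNC + H2O2 range and the other 3 above it; ShNC cells lay above ShNC + H2O2 cells in each library. PSMB3 differed by 0.34 ± 0.11, edgeR adjusted p = 0.025 on the log2 scale in the knockdown comparison and by -0.54 ± 0.11, edgeR adjusted p = 0.00114 in the H2O2 comparison. The call in the knockdown comparison was lost (0.31 to 0.34) without replicate 1, 2 or 4 of either group with H2O2, and relative to its neighbours (0.20). PSMB1 (ENSG00000008018, chr6:170535117-170553341, - strand) had 177, 175, 126 and 182 CPM in Yap1 knockdown + H2O2 cells, 154, 151, 155 and 151 CPM in ShNC + H2O2 cells, and 206, 226, 220.0 and 168 CPM in ShNC cells. Each ShNC library lay above each ShNC + H2O2 library, and the knockdown group reached from below the ShNC + H2O2 range into the ShNC range. PSMB1 changed by -0.42 ± 0.11, edgeR adjusted p = 0.00481 in the H2O2 comparison and by -0.31 ± 0.11, edgeR adjusted p = 0.0397 in the combined one. Relative to its neighbours the combined value was -0.21, not called. The combined call was also lost (-0.34 to -0.20) without replicate 2 or 3 of the knockdown group or replicate 1, 2 or 3 of ShNC.

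The 3 catalytic genes did not share 1 pattern. PSMB6, with the caspase-like site (ENSG00000142507, chr17:4796144-4798503, + strand), had 78.0, 79.3, 77.7 and 79.4 CPM in Yap1 knockdown + H2O2 cells, 64.0, 61.2, 65.5 and 61.7 CPM in ShNC + H2O2 cells, and 95.7, 94.4, 95.8 and 75.2 CPM in ShNC cells. The knockdown group lay wholly above ShNC + H2O2 cells and below 3 of 4 ShNC libraries. On the log2 scale PSMB6 changed by 0.32 ± 0.07, edgeR adjusted p = 0.00246 in the knockdown comparison, -0.52 ± 0.07, edgeR adjusted p = 2.85e-05 in the H2O2 comparison and -0.20 ± 0.07, edgeR adjusted p = 0.0477 in the combined one. The last call was lost (-0.20 to -0.17) without any 1 of the 4 knockdown libraries or of ShNC replicates 1, 2 and 3. PSMB5, with the chymotrypsin-like site that proteasome inhibitor drugs bind first (ENSG00000100804, chr14:23016543-23035230, - strand), had 107, 111, 77.3 and 115 CPM in Yap1 knockdown + H2O2 cells, 114, 118, 109.9 and 117 CPM in ShNC + H2O2 cells, and 126, 129, 133 and 75.2 CPM in ShNC cells. Replicate 4 of ShNC and replicate 3 of the knockdown group lay far below their groups, and all 3 groups overlapped. The log2 fold change in the H2O2 comparison was -0.01 (95% interval -0.35 to 0.33) and -0.18 without both libraries, where it passed. PSMB7, with the trypsin-like site (ENSG00000136930, chr9:124353466-124415444, - strand), had 180.0, 175, 157 and 184 CPM in Yap1 knockdown + H2O2 cells, 165, 163, 169 and 163 CPM in ShNC + H2O2 cells, and 172, 175, 185 and 145 CPM in ShNC cells. The groups overlapped, and the log2 fold changes were 0.08 (95% interval -0.08 to 0.24) in the knockdown comparison and -0.04 (-0.20 to 0.12) in the H2O2 comparison. PSMB10, the immunoproteasome counterpart of PSMB7, averaged 12.3 ± 2.12 CPM in Yap1 knockdown + H2O2 cells, 10.0 ± 0.257 CPM in ShNC + H2O2 cells and 10.1 ± 2.07 CPM in ShNC cells and passed in none. PSMB8, left out of the set, was lower in the H2O2 comparison (-0.33 ± 0.12, edgeR adjusted p = 0.0364) with overlapping groups, and PSMB9 was not called (-0.14, adjusted p = 0.322 by edgeR).

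**Figure D3:**
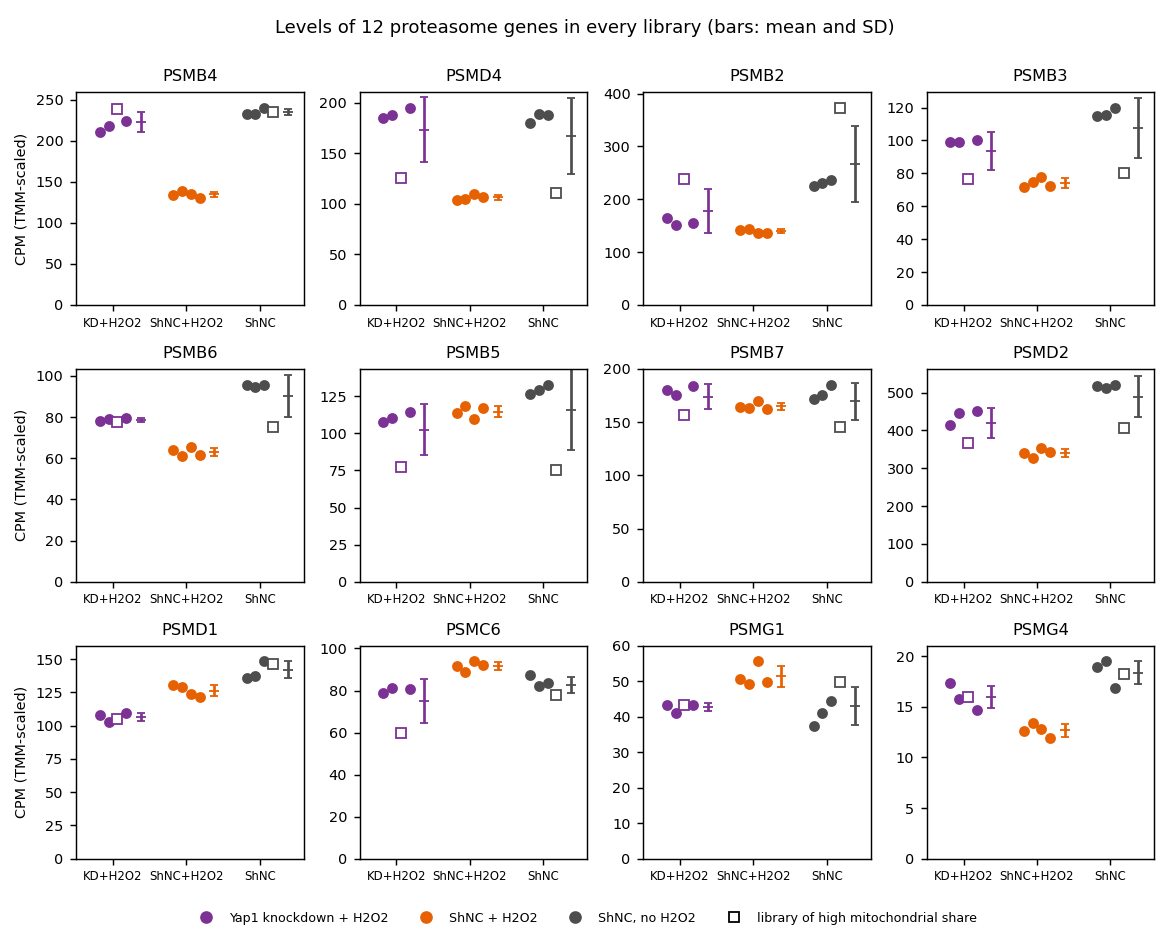
CPM in each library (points; open squares mark the 2 libraries of high mitochondrial share) with mean and SD of 4 libraries for 12 members, in Yap1 knockdown + H2O2, ShNC + H2O2 and ShNC cells from left to right in each panel. PSMB4 and PSMD4 show the widest dip in ShNC + H2O2 cells, PSMB5 and PSMB7 overlap across groups, and the open squares of PSMB2 lie above and those of PSMB5 below the other points of their groups.

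With all 12 libraries, 1 of 6 ATPases of the base was lower with H2O2 (22.6% of all genes), and 1 was higher and 1 lower with the knockdown (22.0% and 21.0%). Without both libraries of high mitochondrial share, 2 were higher and 3 lower with H2O2 (29.8% and 29.6%), and 1 higher and 3 lower with the knockdown (28.8% and 28.5%). With all 12 libraries, PSMC2 was lower with H2O2 and higher with the knockdown, PSMC6 was lower with the knockdown, and PSMC1, PSMC3, PSMC4 and PSMC5 passed in none. Medians were -0.06 in the knockdown, -0.03 in the H2O2 and -0.07 in the combined comparison. PSMC2 averaged 110.0 ± 2.84 CPM in Yap1 knockdown + H2O2 cells, 95.4 ± 1.58 CPM in ShNC + H2O2 cells and 111 ± 3.24 CPM in ShNC cells (SD, n = 4 each). Its log2 fold changes were 0.21 ± 0.05, edgeR adjusted p = 0.00392 in the knockdown comparison and -0.22 ± 0.05, edgeR adjusted p = 0.00241 in the H2O2 comparison, and its groups did not overlap in either. PSMC6 (ENSG00000100519, chr14:52707172-52728587, + strand) had 78.7, 81.4, 59.6 and 80.9 CPM in Yap1 knockdown + H2O2 cells, 91.7, 89.0, 93.9 and 91.9 CPM in ShNC + H2O2 cells, and 87.2, 82.2, 83.6 and 78.0 CPM in ShNC cells. The knockdown group lay wholly below ShNC + H2O2 cells and overlapped ShNC cells. Its log2 fold change in the knockdown comparison was -0.29 ± 0.09, edgeR adjusted p = 0.0131; it was -0.19 without knockdown replicate 3, the lowest of the 12 libraries, and -0.04, not called, relative to its neighbours. PSMC3 (ENSG00000165916, chr11:47418769-47426473, - strand) had 75.8, 73.9, 66.8 and 78.8 CPM in Yap1 knockdown + H2O2 cells, 80.2, 78.7, 81.7 and 85.6 CPM in ShNC + H2O2 cells, and 101, 102, 101 and 63.0 CPM in ShNC cells. Replicates 1, 2 and 3 of ShNC were tightly grouped above all other libraries, and replicate 4 was the lowest of all 12. PSMC3 missed the threshold in the combined comparison (-0.31 ± 0.12, edgeR adjusted p = 0.0609) and passed without ShNC replicate 4 (-0.46). PSMC1 overlaps NRDE2 over 75.8% of its exon bases, so its counts cannot be assigned with certainty.

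Among the other 11 subunits of the cap, 7 were lower with H2O2 and none higher (22.6% and 23.9% of all genes), with a median of -0.28. With the knockdown 6 were higher and 1 lower (22.0% and 21.0%), with a median of 0.24. Without both libraries of high mitochondrial share, 10 were lower and 1 higher with H2O2 (29.6% and 29.8%), and 8 higher and 2 lower with the knockdown (28.8% and 28.5%). PSMD4, which binds ubiquitin chains, and PSMD2, a scaffold of the base that docks shuttle proteins, showed the largest changes. PSMD4 (ENSG00000159352, chr1:151254703-151267479, + strand) had 185, 187, 126 and 195 CPM in Yap1 knockdown + H2O2 cells, 104, 105, 109.7 and 107 CPM in ShNC + H2O2 cells, and 180.0, 189, 187 and 111 CPM in ShNC cells. ShNC + H2O2 cells lay below both other groups in each library, by a narrow margin at ShNC replicate 4, and knockdown replicate 3 and ShNC replicate 4 stood well below their groups. PSMD4 had log2 fold changes of 0.70 ± 0.16, edgeR adjusted p = 0.00287 in the knockdown comparison and -0.65 ± 0.16, edgeR adjusted p = 0.00434 in the H2O2 comparison, and 0.83 and -0.81 without those 2 libraries. PSMD2 (ENSG00000175166, chr3:184298709-184309054, + strand), among the most abundant members per kb at 76.4, had 414, 446, 367 and 452 CPM in Yap1 knockdown + H2O2 cells, 340.1, 326, 354 and 342 CPM in ShNC + H2O2 cells, and 516, 513, 521 and 408 CPM in ShNC cells. The knockdown group lay wholly above ShNC + H2O2 cells. It differed by 0.30 ± 0.08, edgeR adjusted p = 0.00821 in the knockdown comparison and by -0.52 ± 0.08, edgeR adjusted p = 9.07e-05 in the H2O2 comparison.

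PSMD1, the other large scaffold of the base, went its own way. PSMD1 (ENSG00000173692, chr2:231056864-231172827, + strand) had 108, 103, 105 and 109.7 CPM in Yap1 knockdown + H2O2 cells, 131, 129, 123 and 122 CPM in ShNC + H2O2 cells, and 136, 137, 148 and 146 CPM in ShNC cells. The 3 groups did not overlap: the knockdown group was lowest, ShNC + H2O2 cells lay between, and ShNC cells were highest. The log2 fold change was -0.25 ± 0.05, edgeR adjusted p = 0.00186 in the knockdown comparison, -0.17 ± 0.05, edgeR adjusted p = 0.0181 in the H2O2 comparison and -0.42 ± 0.05, edgeR adjusted p = 3.07e-05 in the combined one. Relative to its neighbours PSMD1 had -0.14, not called, in the knockdown comparison and -0.29, called, in the H2O2 comparison. The H2O2 call was lost (-0.16 to -0.15) without replicate 3 or 4 of ShNC + H2O2 or replicate 3 of ShNC. PSMD12, of the lid (ENSG00000197170, chr17:67337916-67366627, - strand), had 87.0, 86.3, 70.4 and 90.2 CPM in Yap1 knockdown + H2O2 cells, 82.0, 83.5, 83.2 and 85.8 CPM in ShNC + H2O2 cells, and 106, 104, 108 and 99.7 CPM in ShNC cells. Both groups with H2O2 lay below ShNC cells and overlapped each other. PSMD12 changed by -0.32 ± 0.07, edgeR adjusted p = 0.00158 in the H2O2 comparison and by -0.32 ± 0.07, edgeR adjusted p = 0.00254 in the combined one.

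The remaining cap genes gave smaller differences. PSMD3, a lid scaffold, was higher in the knockdown comparison (0.29 ± 0.06, edgeR adjusted p = 0.00208) and lower in the H2O2 comparison (-0.46 ± 0.06, edgeR adjusted p = 2.47e-05) and the combined one (-0.18 ± 0.06, edgeR adjusted p = 0.0477). The last call was lost (-0.17 to -0.15) without replicate 1, 2 or 4 of the knockdown group or replicate 1, 2 or 3 of ShNC. In the knockdown comparison PSMD3 was not called relative to its neighbours (0.15). PSMD11, also of the lid, was higher in the knockdown comparison (0.24 ± 0.08, edgeR adjusted p = 0.02; lost without ShNC + H2O2 replicate 2, 0.23, and relative to its neighbours, 0.20), lower in the H2O2 comparison (-0.48 ± 0.08, edgeR adjusted p = 9.86e-05) and lower in the combined one (-0.24 ± 0.08, edgeR adjusted p = 0.026; lost without knockdown replicate 1, 2 or 4, -0.22). PSMD7, a partner of the lid protease PSMD14, was higher with the knockdown (0.29 ± 0.06, edgeR adjusted p = 0.00105) and lower with H2O2 (-0.28 ± 0.06, edgeR adjusted p = 0.000925). PSMD6 was higher with the knockdown (0.26 ± 0.06, edgeR adjusted p = 0.0033), but not called relative to its neighbours (0.05). PSMD14, which cuts ubiquitin off the substrate, was not called in any comparison (log2 fold changes 0.08, -0.08 and 0.00 in the knockdown, H2O2 and combined comparisons), nor were PSMD8 and PSMD13.

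Of the activators, which open the core without the ATPase cap, and the inhibitor PSMF1, 1 of 5 was lower with the knockdown (21.0% of all genes) and 1 lower with H2O2 (22.6%), with none called in the combined comparison. When both libraries of high mitochondrial share were left out, 1 was higher and 1 lower with the knockdown (28.8% and 28.5%), 2 higher and 1 lower with H2O2 (29.8% and 29.6%), and 2 higher and 3 lower in the combined comparison (24.0% and 22.8%). PSME2, which forms an interferon-inducible activator with PSME1, was lower with the knockdown. PSME2 (ENSG00000100911, chr14:24143362-24147570, - strand) had 77.2, 76.7, 66.7 and 78.6 CPM in Yap1 knockdown + H2O2 cells, 90.04, 89.4, 85.3 and 90.8 CPM in ShNC + H2O2 cells, and 82.3, 84.5, 80.5 and 65.4 CPM in ShNC cells. The knockdown group lay wholly below ShNC + H2O2 cells and overlapped ShNC cells. Its log2 fold change was -0.25 ± 0.08, edgeR adjusted p = 0.0199, and the call was lost (-0.24) without ShNC + H2O2 replicate 4. PSME1, whose gene starts the same cluster, had -0.12 (95% interval -0.32 to 0.07) in the knockdown comparison and passed in none. PSME3, the nuclear activator, averaged 146 ± 21.2 CPM in Yap1 knockdown + H2O2 cells, 133 ± 1.402 CPM in ShNC + H2O2 cells and 173 ± 39.0 CPM in ShNC cells (SD, n = 4 each). It was lower in the H2O2 comparison (-0.37 ± 0.13, edgeR adjusted p = 0.0258); the value was -0.21 without ShNC replicate 4, and the call was lost (-0.38 to -0.37) without any 1 of the 4 ShNC + H2O2 libraries. PSME4, an activator best known from the testis and the nucleus, and PSMF1 passed in none.

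Of the 7 chaperones of assembly, 1 was higher and 1 lower with the knockdown, and 1 higher and 2 lower with H2O2, against 22.0%, 21.0%, 23.9% and 22.6% of all genes. Leaving out both libraries of high mitochondrial share gave 2 higher and 1 lower with the knockdown (28.8% and 28.5% of all genes). With H2O2 it gave 2 higher and 2 lower (29.8% and 29.6%). PSMG1 and PSMG2 form a pair that starts the alpha ring, and PSMG3 and PSMG4 form a second pair. PSMG1 (ENSG00000183527, chr21:39174769-39183851, - strand) had 43.2, 41.2, 43.3 and 43.2 CPM in Yap1 knockdown + H2O2 cells, 50.7, 49.1, 55.6 and 49.9 CPM in ShNC + H2O2 cells, and 37.3, 40.9, 44.3 and 49.9 CPM in ShNC cells. ShNC + H2O2 cells lay above the knockdown group without overlap, and ShNC replicate 4 reached into their range. The log2 fold change was -0.26 ± 0.08, edgeR adjusted p = 0.0155 in the knockdown comparison and 0.25 ± 0.08, edgeR adjusted p = 0.0186 in the H2O2 comparison, opposite in sign to most members. The first call was lost (-0.23) without ShNC + H2O2 replicate 3 and the second (0.19 to 0.22) without that library or ShNC replicate 1 or 2. Its partner PSMG2 passed in neither (-0.01 and 0.03), but without both libraries of high mitochondrial share it was higher with H2O2 (0.17). The difference between partners was not tested. PSMG4 (ENSG00000180822, chr6:3231403-3303373, + strand) had 17.3, 15.8, 15.9 and 14.7 CPM in Yap1 knockdown + H2O2 cells, 12.6, 13.4, 12.8 and 11.9 CPM in ShNC + H2O2 cells, and 18.96, 19.5, 16.9 and 18.2 CPM in ShNC cells. ShNC + H2O2 cells were lowest without overlap. PSMG4 differed by 0.33 ± 0.08, edgeR adjusted p = 0.00384 in the knockdown comparison and by -0.54 ± 0.08, edgeR adjusted p = 5.15e-05 in the H2O2 comparison, while its partner PSMG3 passed in neither (-0.19 and 0.10). Of the 3 chaperones of the ATPase base, PSMD10 was lower in the H2O2 comparison (-0.30 ± 0.07, edgeR adjusted p = 0.00229) and in the combined one (-0.22 ± 0.07, edgeR adjusted p = 0.0222; lost without knockdown replicate 2 or ShNC replicate 1 or 3, -0.22 to -0.20), and PSMD5 and PSMD9 passed in none.

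PSMC3IP and PSME3IP1 carry the symbol stem but are no subunits. PSMC3IP, known for its part in meiotic recombination (ENSG00000131470, chr17:42572315-42577831, - strand), had 12.8, 13.2, 14.7 and 13.9 CPM in Yap1 knockdown + H2O2 cells, 14.7, 16.5, 13.3 and 14.4 CPM in ShNC + H2O2 cells, and 16.9, 18.1, 17.8 and 17.8 CPM in ShNC cells. Both groups with H2O2 lay below ShNC cells. It changed by -0.26 ± 0.08, edgeR adjusted p = 0.0159 in the H2O2 comparison and by -0.37 ± 0.08, edgeR adjusted p = 0.00259 in the combined one, and the first call was lost (-0.21) without ShNC + H2O2 replicate 3. PSME3IP1, which binds PSME3, spanned 79.7 to 85.5 CPM over all 12 libraries and passed in none.

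Genes of these members lie on many chromosomes, and some of the largest fold changes were shared by their neighbours. For each member the median log2 fold change of the 50 nearest tested genes was taken and subtracted. These were 25 on each side, or an uneven split of 50 near a chromosome end. PSMB4 and PSMD4 lie 132055 bases apart on chromosome 1, and around both the neighbours had medians of 0.69 and 0.70 in the knockdown comparison and of -0.62 and -0.66 in the H2O2 comparison. After subtraction PSMB4 had 0.03 in the knockdown comparison, not called, and -0.18 in the H2O2 comparison, still called; PSMD4 had 0.00 and 0.02, neither called. These 2 members are thus not independent of each other or of their region. PSMD2 on chromosome 3 had neighbours at 0.60 and -0.58 and turned to -0.29, called lower, in the knockdown comparison, and to 0.06, not called, in the H2O2 comparison.

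PSMG1 on chromosome 21 had neighbours at -0.71 in the knockdown and 0.66 in the H2O2 comparison, and relative to them it was called higher (0.44) and lower (-0.41), the directions of most members. PSME1 and PSME2, 4395 bases apart on chromosome 14, had neighbours at -0.39 and -0.40 in the knockdown comparison, and relative to them had 0.27, called, and 0.16, not called. PSMC6, on the same chromosome, had -0.04, not called. The fall of PSMB2 with H2O2 stood at -0.89 and that of PSMB6 at -0.49, both called and close to their values before subtraction. PSMA3 reached -0.58 in the H2O2 comparison, called lower, against neighbours at 0.43. Over the set, 22 members were lower and 0 higher relative to their neighbours in the H2O2 comparison (21.0% and 22.2% of all genes), 10 higher and 1 lower in the knockdown comparison (19.9% and 19.5%), and 2 higher and 13 lower in the combined one (17.8% and 15.6%). In the combined comparison PSMB3 (-0.33), PSMC3 (-0.36), PSMD2 (-0.23) and PSMG4 (-0.23) were called lower on that scale, and PSMD6 higher (0.26). None of these passed before subtraction in the edgeR fit of all 12 libraries. In the knockdown comparison the same held for PSMA4 (0.39), PSMC4 (0.26), PSMD8 (0.41) and PSME4 (0.29), all higher, and in the H2O2 comparison for PSMC4 (-0.28), PSMC5 (-0.27), PSMD8 (-0.44) and PSME1 (-0.30), all lower. PSMC2 (-0.38) and PSMD7 (-0.44) lay further below 0 in the H2O2 comparison than before subtraction. Members below 0 numbered 41 of 46 in the H2O2 comparison and 7 of 46 in the knockdown comparison on that scale. Of all genes, 50% and 50.05% lay below 0 in the same order.

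**Figure D4:**
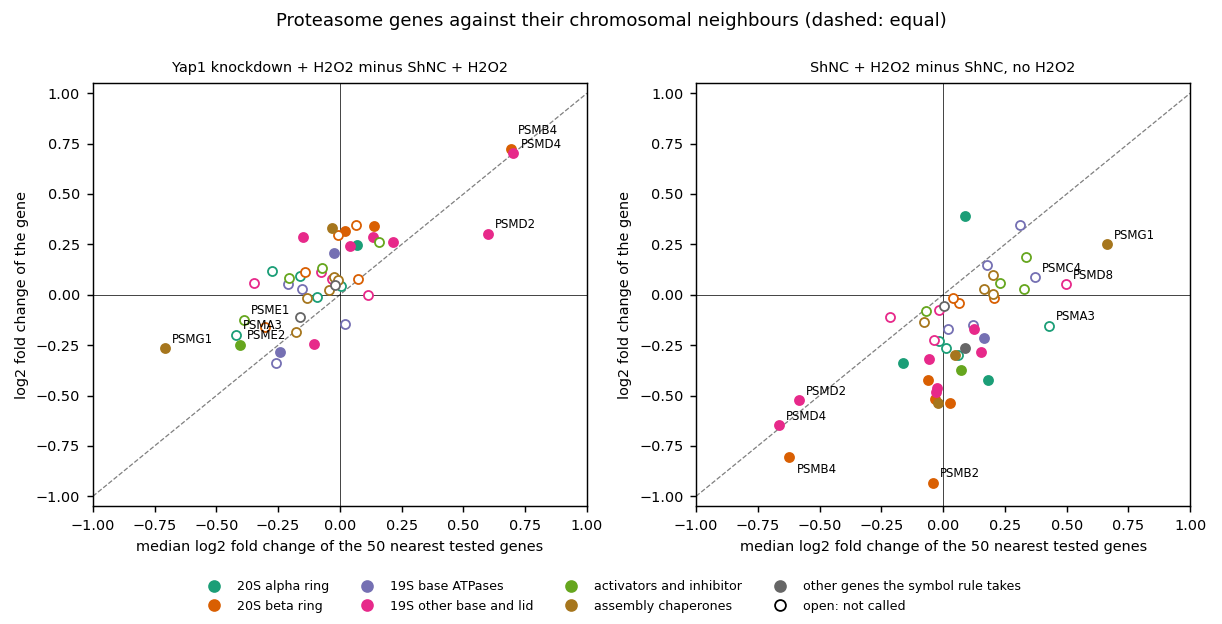
Log2 fold change of each member against the median of its 50 nearest tested genes in the knockdown comparison (left) and the H2O2 comparison (right); the dashed line marks equal values and filled points were called. PSMB4 and PSMD4 sit on or near the line at 0.7 on the left, whereas PSMB2 on the right lies at -0.93 with neighbours near 0.

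The 2 libraries of high mitochondrial share departed from their groups in the same way. For 35 of 46 members both deviated to the same side of the mean of their 3 fellow libraries on the log2 CPM scale. The share of all genes was not taken, so this count is no result about the members. Over all tested genes the deviations of these 2 libraries from their group means correlated at 0.54. PSMB2 lay 0.69 above in ShNC replicate 4 and 0.61 above in knockdown replicate 3; PSMA7 lay at -0.90 and -0.48, and PSMB5 at -0.78 and -0.52. Whether this goes with RNA quality was not tested.

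Leaving out these 2 libraries added members past the threshold, given here with their log2 fold changes without them. In the knockdown comparison PSMA4 (0.16), PSMA7 (0.19), PSMB1 (0.22), PSMB2 (0.17), PSMB7 (0.13), PSMB10 (0.40), PSMD13 (0.20), PSMD14 (0.18), PSMD10 (0.13) and PSMF1 (0.13) became higher, and PSMC1 (-0.21), PSMC3 (-0.10) and PSMD8 (-0.10) lower. The H2O2 comparison gained PSMA1 (-0.24), PSMA3 (-0.23), PSMA7 (-0.49), PSMB5 (-0.18), PSMB7 (-0.11), PSMC3 (-0.32), PSMC5 (-0.25), PSMD6 (-0.13), PSMD13 (-0.34) and PSMD14 (-0.12) as lower. It gained PSMC1 (0.17), PSMC6 (0.11), PSMD8 (0.09), PSME2 (0.10), PSME4 (0.12) and PSMG2 (0.17) as higher. In the combined comparison PSMA7 (-0.30), PSMB3 (-0.24), PSMB4 (-0.12), PSMB5 (-0.23), PSMC3 (-0.42), PSMC5 (-0.19), PSMD2 (-0.25), PSMD13 (-0.14), PSME1 (-0.13), PSME2 (-0.10), PSME3 (-0.18) and PSMG4 (-0.22) became lower, and PSMB10 (0.24), PSMD6 (0.19), PSME4 (0.20) and PSMF1 (0.15) higher. The statements above that a member did not pass hold for the fit of all 12 libraries, and for these genes they change without the 2 libraries.

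**Figure D5:**
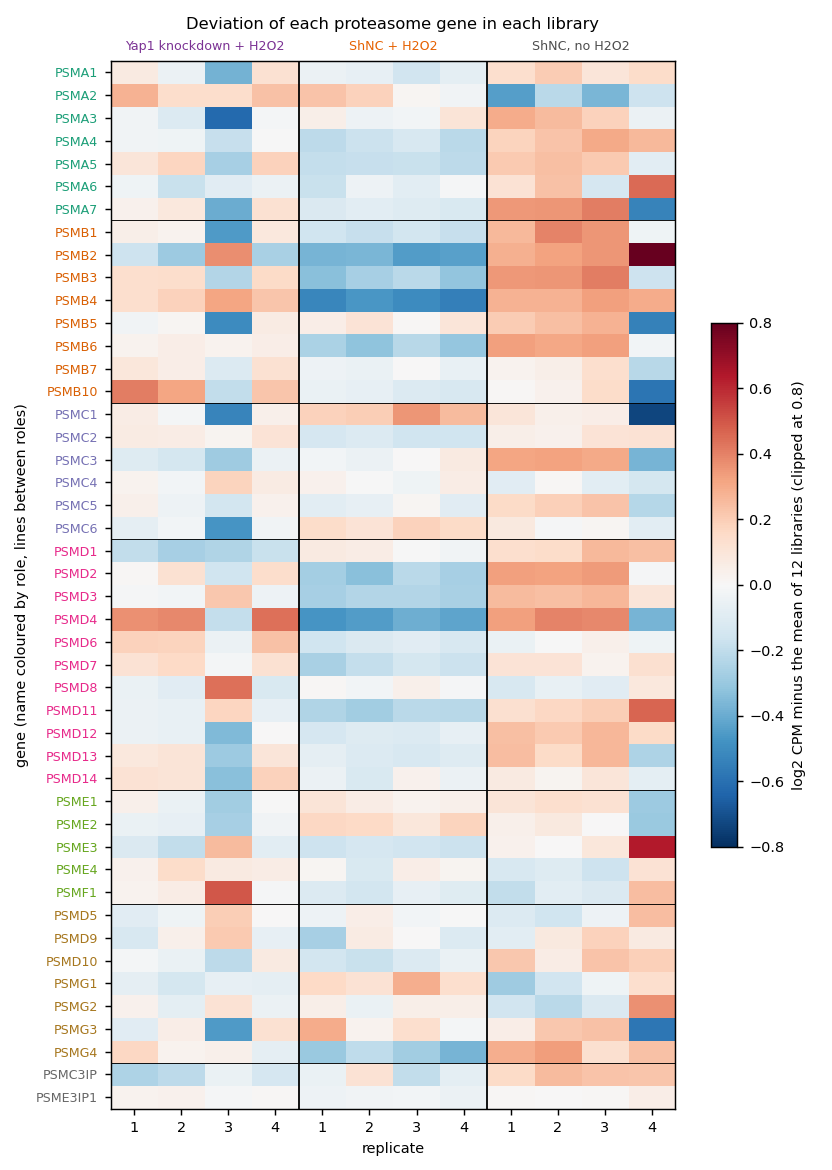
Log2 CPM of each member in each library minus its mean over the 12 libraries, with columns grouped as Yap1 knockdown + H2O2, ShNC + H2O2 and ShNC, and rows ordered by role. ShNC + H2O2 columns are alike and mostly below the mean, and replicate 3 of the knockdown group and replicate 4 of ShNC break from their groups, with PSMB2 high and PSMA7 and PSMB5 low in both.

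Proteasome partners outside the symbol rule gave 5 higher and 1 lower of 14 in the knockdown comparison, 3 higher and 4 lower in the H2O2 comparison and 3 higher and 2 lower in the combined one. Their median log2 fold changes were 0.12, -0.15 and 0.05 in that order, against 0.00 over all genes in each. Of all genes, 22.0% were higher and 21.0% lower in the knockdown comparison, 23.9% and 22.6% in the H2O2 comparison, and 17.4% and 15.1% in the combined one. The counts of this and the following lists from all 12 libraries stand against these shares. The partners gave, without both libraries of high mitochondrial share, 8 higher and 3 lower with the knockdown, 4 and 7 with H2O2, and 7 and 2 in the combined comparison. List counts without both libraries stand against larger shares of all genes. These were 28.8% higher and 28.5% lower with the knockdown, 29.8% and 29.6% with H2O2, and 24.0% and 22.8% in the combined comparison. POMP, the chaperone that matures the core, averaged 81.1 ± 6.46 CPM in Yap1 knockdown + H2O2 cells, 69.0 ± 1.79 CPM in ShNC + H2O2 cells and 97.8 ± 5.00 CPM in ShNC cells (SD, n = 4 each). Its log2 fold changes were 0.23 ± 0.07, edgeR adjusted p = 0.00935 in the knockdown comparison, -0.50 ± 0.07, edgeR adjusted p = 1.27e-05 in the H2O2 comparison and -0.27 ± 0.07, edgeR adjusted p = 0.00522 in the combined one. UCHL5, a ubiquitin protease of the cap, was higher in the knockdown comparison (0.64 ± 0.07, edgeR adjusted p = 3.71e-06) and lower in the H2O2 comparison (-0.70 ± 0.07, edgeR adjusted p = 9.72e-07). Relative to its neighbours it had 0.33 and -0.43, both called. ADRM1, the ubiquitin receptor that holds UCHL5, was higher in the knockdown comparison (0.41 ± 0.08, edgeR adjusted p = 0.00102) and the combined one (0.30 ± 0.08, edgeR adjusted p = 0.0127). SEM1, a small lid subunit, was lower in the combined one (-0.47 ± 0.12, edgeR adjusted p = 0.00805). PITHD1, a proteasome-binding protein, was lower in the knockdown comparison (-0.21 ± 0.08, edgeR adjusted p = 0.046) and higher in the H2O2 comparison (0.39 ± 0.08, edgeR adjusted p = 0.000863). UBLCP1, a phosphatase of the proteasome, was higher with H2O2 (0.34 ± 0.07, edgeR adjusted p = 0.000881), and PAAF1, a base chaperone, was higher in the combined comparison (0.29 ± 0.10, edgeR adjusted p = 0.0299). PAAF1 levels overlapped between the groups compared there, and its call was lost with library totals in place of TMM scaling. The combined call of ADRM1 also did not hold in every alternative fit. Relative to their neighbours, POMP in the combined comparison (-0.16) and PITHD1 in the knockdown comparison (-0.20) were not called, and UBLCP1 had 0.55 with H2O2.

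Of 19 regulators of proteasome gene transcription, 6 were higher and 2 lower in the knockdown comparison, 2 higher and 6 lower in the H2O2 comparison, and 4 higher and 2 lower in the combined one. Medians were 0.12, -0.07 and 0.05 in that order. Leaving out both libraries of high mitochondrial share gave 10 higher and 4 lower with the knockdown, 6 and 9 with H2O2, and 7 and 5 in the combined comparison. NFE2L1 averaged 258 ± 13.6 CPM in Yap1 knockdown + H2O2 cells, 198 ± 5.62 CPM in ShNC + H2O2 cells and 249.9 ± 26.4 CPM in ShNC cells (SD, n = 4 each). It was higher in the knockdown comparison (0.38 ± 0.07, edgeR adjusted p = 0.000527) and lower in the H2O2 comparison (-0.34 ± 0.07, edgeR adjusted p = 0.0013); it was named for its known role and not by size. Its relative NFE2L3 was lower in the H2O2 comparison (-0.65 ± 0.07, edgeR adjusted p = 1.66e-06) and the combined one (-0.55 ± 0.07, edgeR adjusted p = 2.07e-05). MAFF, a small partner of these factors, was higher in the knockdown comparison (0.98 ± 0.09, edgeR adjusted p = 4.75e-07) and the combined one (1.18 ± 0.09, edgeR adjusted p = 1.52e-07). BACH1, which competes for the same element, was higher in the H2O2 comparison (0.93 ± 0.11, edgeR adjusted p = 6.72e-06) and the combined one (0.73 ± 0.11, edgeR adjusted p = 0.000153). Of the subunits of the CCAAT-binding complex, NFYC was higher (0.56 ± 0.12, edgeR adjusted p = 0.00127) and NFYB lower (-0.36 ± 0.07, edgeR adjusted p = 0.000419) in the knockdown comparison, and NFYC lower (-0.38 ± 0.12, edgeR adjusted p = 0.0151) and NFYB higher (0.22 ± 0.07, edgeR adjusted p = 0.0112) in the H2O2 comparison. FOXO4 was lower in the knockdown comparison (-0.43 ± 0.12, edgeR adjusted p = 0.00805) and VCP, which extracts substrates and NFE2L1 from membranes, lower in the combined one (-0.42 ± 0.15, edgeR adjusted p = 0.0446). Relative to their neighbours, NFYC with H2O2 was not called (-0.27), and BACH1 with H2O2 (0.55) and NFE2L3 in the combined comparison (-0.34) were called at smaller values.

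Upstream of the proteasome, ubiquitin genes and E1 enzymes gave 0 higher and 1 lower of 6 in the knockdown comparison, 2 higher and 0 lower in the H2O2 comparison and none in the combined one, with medians of -0.05, 0.18 and 0.08. Leaving out both libraries of high mitochondrial share gave 1 higher and 2 lower, 3 and 2, and 2 and 0. UBA6, a second E1 enzyme, was lower with the knockdown (-0.64 ± 0.08, edgeR adjusted p = 9.64e-06) and higher with H2O2 (0.43 ± 0.08, edgeR adjusted p = 0.000364). Shuttle receptors and VCP cofactors, of which 13 were tested and DDI1 was not, gave 8 higher and 2 lower in the knockdown comparison, 3 higher and 5 lower in the H2O2 comparison and 6 higher and 0 lower in the combined one, with medians of 0.24, -0.03 and 0.23. Without both libraries they gave 10 and 2, 4 and 5, and 7 and 2 in the same order. RAD23B, a shuttle for ubiquitylated proteins, was higher in the knockdown comparison (0.59 ± 0.06, edgeR adjusted p = 2.81e-06) and lower in the H2O2 comparison (-0.34 ± 0.06, edgeR adjusted p = 0.000506), as was UBQLN4 (0.69 ± 0.08, edgeR adjusted p = 3.32e-06 and -0.41 ± 0.08, edgeR adjusted p = 0.000476). UBQLN4 was not called relative to its neighbours (0.12 and 0.16), and RAD23B had -0.19, still called, with H2O2. UBXN4 was lower (-0.41 ± 0.06, edgeR adjusted p = 3.57e-05) and higher (0.36 ± 0.06, edgeR adjusted p = 8.97e-05) in the same order. UBQLN2 was lower in the knockdown comparison (-0.23 ± 0.07, edgeR adjusted p = 0.0115). UBXN1 was higher in the H2O2 comparison (0.33 ± 0.09, edgeR adjusted p = 0.00644) and the combined one (0.44 ± 0.09, edgeR adjusted p = 0.00129), and FAF1 was higher in the combined one (0.43 ± 0.06, edgeR adjusted p = 4.06e-05). UBXN4 (0.19) and UBXN1 (0.50) were still called higher with H2O2 relative to their neighbours, at a smaller and a larger value.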

How the data were processed

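Per the labels' protocols, poly(A) RNA was made into paired-end libraries and sequenced on an Illumina or MGI instrument, without saying which library ran where. The deposited values are whole-number counts per gene, made by the authors; HISAT2, Subread featureCounts, DESeq2 and GRCh38 (hg38) are named in the submitters' processing notes with no version or role. The sources used here give no annotation, strand setting or rule for shared reads. Symbols came from the gene name table for 40555 of 40649 IDs and from GENCODE on GRCh38 for 85 more, which also gave positions (39306 genes), gene types and exons.

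Counts were fitted with edgeR 4.0.16 (R 4.3.3, limma 3.58.1): genes kept by filterByExpr (19268), TMM scaling, robust quasi-likelihood fit of all 12 libraries with 1 mean per group and 9 residual degrees of freedom, and Benjamini-Hochberg adjustment over all tested genes at 0.05. Errors of fold changes are SE; errors of levels are SD. CPM were scaled by TMM. The fit was checked on simulated counts. Alternatives were DESeq2's size factors, library totals alone, no filter, a mean of at least 5 CPM, DESeq2 1.42.0, only the 2 groups compared, a replicate block, leaving out each library, leaving out both libraries of high mitochondrial share, and subtracting the median of the 50 nearest tested genes with the same SE.

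The members, roles and lists (partners, immunoproteasome subunits, transcription regulators, ubiquitin and E1 genes, shuttles and VCP cofactors, and tubular epithelial, proximal tubule, leukocyte, endothelial and fibroblast markers) were chosen with earlier results of these data known, as were the last 2 alternatives, so they get counts and medians with no set test. Values per library are given for the 6 members with the largest called rise and fall in each comparison, the 3 catalytic beta subunits, members called in opposite directions by at least 0.5 in the knockdown and H2O2 comparisons, and members of at least 0.3 whose call or sign changed relative to their neighbours; up to 2 called genes per list and direction are named.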

Additional observations from a re-analysis of the deposited data

Results flagged for a closer look

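In each group of 4 libraries a value was set apart where its gap to the nearest other library exceeded 0.829 of the group's range (Dixon's 95% limit), which chance gives in about 1 of 20 groups. Of 138 groups examined, 29 had such a library, and 27 of these lay in the 2 libraries of high mitochondrial share. Nothing was tested about why these 2 libraries depart; the values below are a description.

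In knockdown + H2O2 replicate 3, the levels that lay above the other 3 knockdown libraries were PSMB2 239 CPM (others 151 to 165), PSMD3 192 CPM (others 161 to 164), PSMD8 159.8 CPM (others 108 to 113), PSMD11 144 CPM (others 122 to 123) and PSMF1 192 CPM (others 135 to 142). Below them lay PSMB1 126 CPM (others 175 to 182), PSMB3 76.6 CPM (others 99.01 to 100.04), PSMC1 25.2 CPM (others 36.0 to 37.9), PSMC6 59.6 CPM (others 78.7 to 81.4), PSMD4 126 CPM (others 185 to 195), PSMD13 59.6 CPM (others 77.2 to 78.3) and PSME2 66.7 CPM (others 76.7 to 78.6). PSMG1 was low in knockdown + H2O2 replicate 2, at 41.2 CPM against 43.2 to 43.3 CPM in the others, and PSMG2 was low in ShNC + H2O2 replicate 2, at 30.8 CPM against 33.0 to 33.1 CPM, both by small amounts.

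In ShNC replicate 4, the levels above the other 3 ShNC libraries were PSMB2 373 CPM (others 225 to 236), PSME3 231 CPM (others 149 to 158), PSMG2 41.2 CPM (others 27.6 to 29.5) and PSME3IP1 85.5 CPM (others 82.8 to 83.1). Below them lay PSMA5 109.6 CPM (others 134 to 137), PSMA7 137 CPM (others 253 to 264), PSMB3 80.2 CPM (others 115 to 119.9), PSMB5 75.2 CPM (others 126 to 133), PSMB6 75.2 CPM (others 94.4 to 95.8), PSMC1 21.9 CPM (others 37.4 to 38.9), PSMC3 63.0 CPM (others 101 to 102), PSMD2 408 CPM (others 513 to 521), PSMD3 177 CPM (others 195 to 199), PSMD4 111 CPM (others 180.0 to 189) and PSME1 115 CPM (others 151 to 154). PSMB2 was set apart upward, and PSMB3, PSMC1 and PSMD4 downward, in both libraries, while PSMD3 was high in the first and low in the second.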

How the results depend on the processing

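Of 2340 reruns of single-gene values, 2120 kept their direction and side of the threshold, counting 131 sign changes between values that were called in neither fit as kept. Where a cause is not named below, the cause was not tested. Shares of all genes are not given for fits that left out a single library, so those counts stand without a background.

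In the knockdown comparison, where 12 members were higher and 4 lower, library totals alone gave 7 higher, leaving out both libraries of high mitochondrial share gave 22 higher and 7 lower, and subtracting the neighbours gave 1 lower and a median of 0.15. Leaving out 1 library gave 9 to 16 higher and 3 or 4 lower. In the H2O2 comparison, where 2 were higher and 19 lower, no filter, a mean of at least 5 CPM (which removes PSMA2 and PSMA6), DESeq2 and the replicate block each gave 1 higher. Leaving out both libraries gave 8 higher and 29 lower, subtracting the neighbours gave 0 higher and a median of -0.24, library totals gave a median of -0.092, and leaving out 1 library gave 0 to 3 higher and 16 to 23 lower. In the combined comparison, where 1 was higher and 11 lower, library totals gave 6 lower and a fit of only these 2 groups 5 lower. There, no filter and a mean of at least 5 CPM gave 0 higher, leaving out both libraries 5 higher and 23 lower, subtracting the neighbours 2 higher, and leaving out 1 library 1 to 3 higher and 5 to 20 lower, with medians of -0.051 to -0.17.

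Directions turned for PSMD8 in the knockdown comparison without both libraries (-0.10). Relative to neighbours they turned in the knockdown comparison for PSMD2 (-0.29), PSME1 (0.27), PSME2 (0.16) and PSMG1 (0.44), and in the H2O2 comparison for PSMC4 (-0.28), PSMD2 (0.060), PSMD4 (0.017), PSMD8 (-0.44), PSME1 (-0.30) and PSMG1 (-0.41).

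The labels state no pairing of libraries by replicate number. Deviations of same-numbered libraries correlated at -0.00 to 0.04 between ShNC + H2O2 and ShNC. They correlated at -0.38 to 0.27 between Yap1 knockdown + H2O2 and ShNC. Between Yap1 knockdown + H2O2 and ShNC + H2O2 the values were -0.09 to 0.06. Differently numbered libraries gave -0.07 to 0.06, -0.37 to 0.54 and -0.06 to 0.12 in the same order. The 0.54 joined the 2 libraries of high mitochondrial share, which differ in number and can hide a pairing, so these values cannot decide it. With the replicate block, members called higher and lower were 11 and 4 in the knockdown comparison, 1 and 19 in the H2O2 comparison and 1 and 9 in the combined one. PSMA2, the member with the fewest counts (at least 49 in each library), has the largest counting error. In addition, 34.6% of its exon bases overlap other genes. What depth and the counting of shared reads each add to its low level was not tested.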
